A study of Mus musculus with 12 samples.

Results

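The 8 genes described here are Ciita and the MHC class II genes Cd74, H2-Aa, H2-Ab1, H2-Eb1, H2-DMa, H2-DMb1 and H2-DMb2. They were taken by symbol from a table of 32285 mouse genes, and all 8 were among the 14113 genes with enough counts to be tested. Poly(A) RNA came from wild-type mouse bone marrow-derived macrophages, cells differentiated in culture out of marrow. For 16 h they received either medium alone (M) or 5 mM of 1 acid in medium. Itaconic acid (IA), methylsuccinic acid (MetSA) or malonic acid (MA) was added, and no other stimulus is named in the labels. Each of the 4 groups held 3 biological replicates, 12 libraries in all. Nothing in the labels says whether these came from separate animals, so p-values measure the spread between the libraries. Itaconic acid is a dicarboxylic acid made by activated macrophages. Methylsuccinic acid has its carbon skeleton without the carbon-carbon double bond, and malonic acid is a shorter dicarboxylic acid that inhibits succinate dehydrogenase.

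MHC class II molecules present peptides from taken-up proteins to CD4+ T cells. An alpha and a beta chain (H2-Aa with H2-Ab1 in I-A, H2-Eb1 as the beta chain of I-E) assemble on the invariant chain encoded by Cd74. The invariant chain is cut by proteases in endosomes, and its last fragment is exchanged for a peptide with the help of H2-DM, a dimer of H2-DMa with a beta chain from H2-DMb1 or H2-DMb2. CIITA, the product of Ciita, does not bind DNA itself. It is recruited to class II promoters by RFX, NF-Y and CREB family proteins on neighbouring X and Y boxes and is known as the main switch of the family. Macrophages carry low levels of class II until interferon-gamma induces Ciita.

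Promoter sequences were matched in RefSeq's table on GRCm38.p6 for H2-Aa, H2-Eb1, H2-DMa, H2-DMb1 and H2-DMb2 of the 8 genes, and Ciita, Cd74 and H2-Ab1 had no entry. The stretches below are shown because they hold the Y box letters GATTGG and, except in H2-Aa, AACNNATG, the only X box letters searched for. Whether H2-Aa holds an X box of other letters was not tested. They belong to genes of the group whose RNA levels went different ways. Each has 61 bases, aligned on the Y box core GATTGG. Capitals mark that core and, where found before it, the X box letters AACNNATG.
H2-Eb1: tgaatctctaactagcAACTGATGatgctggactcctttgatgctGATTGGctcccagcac
H2-Aa: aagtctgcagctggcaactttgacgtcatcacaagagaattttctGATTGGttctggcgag
H2-DMb1: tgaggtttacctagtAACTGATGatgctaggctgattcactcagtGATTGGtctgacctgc
H2-DMb2: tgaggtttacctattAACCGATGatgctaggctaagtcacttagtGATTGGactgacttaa
They lie at chr17:34305762-34305822 (plus strand), chr17:34287857-34287917 (minus strand), chr17:34153084-34153144 (plus strand) and chr17:34145113-34145173 (plus strand). The Y core began 60 bases before the RefSeq start in H2-Eb1, 49 in H2-Aa, 62 in H2-DMb1 and 91 in H2-DMb2. The gene spans given further below are from GENCODE M21, where H2-DMb1 starts at 34153072 and H2-DMb2 at 34143307. By that annotation the stretches of H2-DMb1 and H2-DMb2 lie inside the gene spans, after their starts. In H2-Eb1 21 bases separated the 2 motifs, and 22 in H2-DMb1 and H2-DMb2. The letters AACNNATG were chosen after these promoters had been read, both strands were searched, and the motifs do not overlap. Of 32851 promoter windows of 300 bases in the table, 16.1% held GATTGG, 8.86% held AACNNATG, and 37 (0.113%) held AACNNATG followed within 40 bases by GATTGG. The window at the first listed start of H2-DMa held neither motif, and the one at its second listed start held GATTGG 199 bases before that start. The pair was found in H2-Eb1, H2-DMb1 and H2-DMb2, and H2-Aa held GATTGG without AACNNATG. Since the letters were chosen from these promoters, this likeness and this difference follow from the choice. The part of the motifs in the RNA changes was not tested.

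Ciita was lower after MA and after IA. In CPM, counts scaled to a common library size with TMM factors, M held 7.39, 8.09 and 8.83, IA 3.88, 4.66 and 4.54, MA 1.88, 3.08 and 3.44, and MetSA 6.09, 8.93 and 7.69. All 6 IA and MA libraries lay below all 6 libraries of M and MetSA, IA lay above MA without overlap, and M and MetSA overlapped. In such bulk samples fewer cells with a transcript and less of it per cell cannot be told apart. With MA, Ciita fell by 1.53 on the log2 scale (SE 0.19, adjusted p = 5.82e-06). Here and below, p is from edgeR's quasi-likelihood F-test, adjusted by Benjamini and Hochberg's method over 14113 genes, and a gene is called changed when it is under 0.05. With IA it fell by 0.90 (SE 0.18, adjusted p = 0.000791 by edgeR). With MetSA the log2 fold change against M was -0.10 (95% interval -0.47 to 0.28, adjusted p = 0.761 by edgeR). Ciita occupies chromosome 16, 10480059 to 10528418 of mm10 (plus strand), with 9535 bases of exon, of which 3.45% overlap Dexi on the opposite strand. Libraries held between 101 and 462 Ciita counts. Counts per gene do not tell apart the alternative first exons from which Ciita is transcribed.

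**Figure D1:**
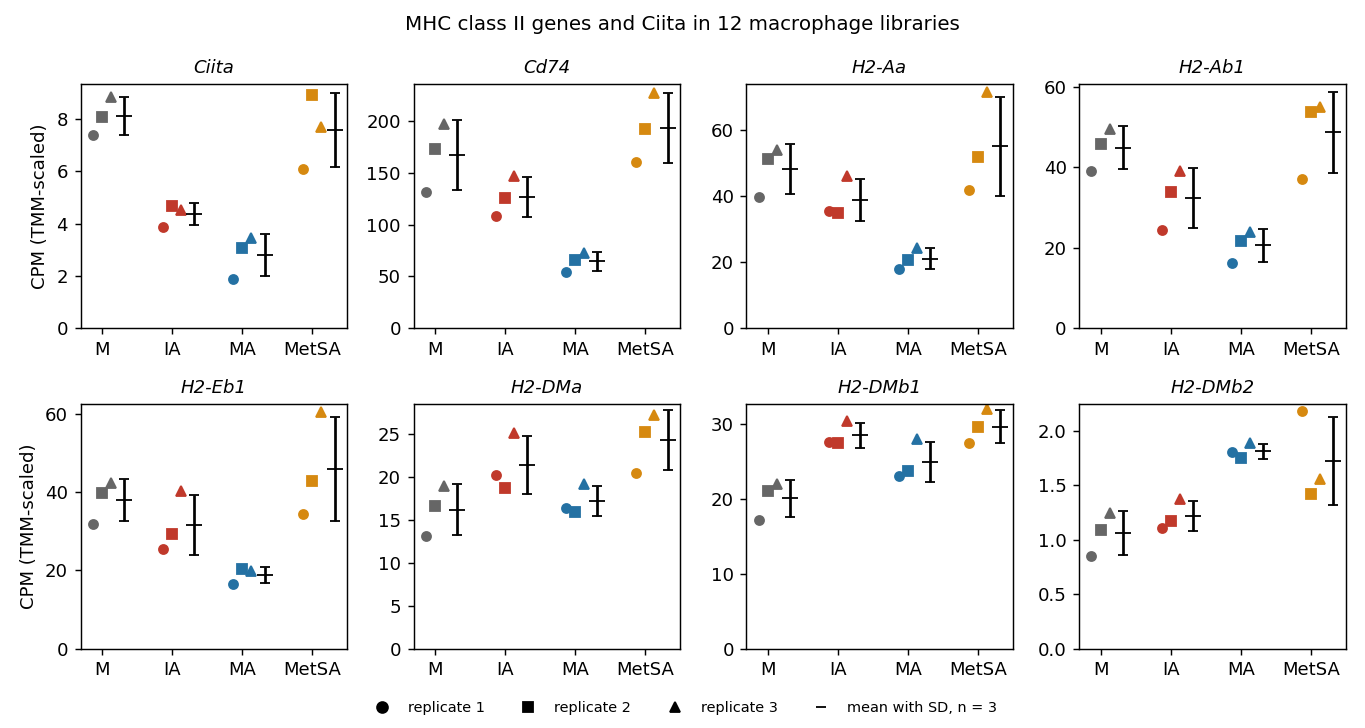
Level of each of the 8 genes in each library (vertical axis, CPM scaled by TMM, starting at 0) by group, with symbols for the replicate number and the mean with SD (n = 3) beside them. Ciita, Cd74, H2-Aa, H2-Ab1 and H2-Eb1 were lowest in MA, whereas H2-DMb1 was lowest in M.

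Cd74, which encodes the invariant chain, fell with MA. M held 131, 173 and 197 CPM, IA 108, 126 and 146, MA 54.7, 65.9 and 72.9, and MetSA 160, 193 and 227. The 3 MA libraries lay below all 9 others, M overlapped both IA and MetSA, and IA lay below MetSA. The log2 fold change of MA against M was -1.37 (SE 0.19, adjusted p = 0.000813 by edgeR), that of IA against M -0.40 (95% interval -0.83 to 0.03, adjusted p = 0.143) and that of MetSA against M 0.21 (-0.22 to 0.64, adjusted p = 0.507). Cd74 lies on chromosome 18. Per kilobase of exon it was the most abundant of the 8 genes in M, at 99.5 ± 19.9 RPKM (SD, n = 3).

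The chain genes H2-Ab1, H2-Aa and H2-Eb1 also fell with MA, each to between 0.437 and 0.496 of its level in M. For H2-Ab1, the beta chain of I-A, M held 39.1, 45.8 and 49.6 CPM, IA 24.4, 33.8 and 39.2, MA 16.2, 21.6 and 24.0, and MetSA 37.1, 53.8 and 55.0. For H2-Aa, its alpha chain, M held 39.7, 51.1 and 54.0 CPM, IA 35.5, 34.8 and 46.0, MA 18.1, 20.8 and 24.4, and MetSA 41.8, 51.8 and 71.3. For H2-Eb1, the I-E beta chain, M held 31.8, 39.7 and 42.2 CPM, IA 25.5, 29.2 and 40.2, MA 16.5, 20.3 and 19.7, and MetSA 34.3, 42.8 and 60.3. For each of these genes every MA library lay below every library of the other 3 groups, and the IA libraries overlapped those of M. MA against M gave log2 fold changes of -1.12 (SE 0.22, adjusted p = 0.00627 by edgeR) for H2-Ab1, -1.19 (SE 0.22, adjusted p = 0.00385) for H2-Aa and -1.01 (SE 0.24, adjusted p = 0.0145) for H2-Eb1. H2-Eb1 was no longer called when M replicate 3 (-0.93, adjusted p = 0.0539) or MA replicate 1 (-0.92, adjusted p = 0.0648) was left out.

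With IA none of the chain genes was called against M. The log2 fold changes were -0.47 for H2-Ab1 (95% interval -0.96 to 0.03), -0.32 for H2-Aa (-0.80 to 0.17) and -0.26 for H2-Eb1 (-0.79 to 0.26), with adjusted p of 0.136, 0.293 and 0.428 by edgeR. All these estimates were below 0, and their intervals reached above it. Without a filter on low counts H2-Ab1, H2-Aa, H2-Eb1 and Cd74 were all called lower with IA, at nearly the same fold changes (-0.46, -0.32, -0.26 and -0.40), and Cd74 was also called without M replicate 1 (-0.54, adjusted p = 0.0438). With no scaling beyond library totals Cd74 (-0.59) and H2-Ab1 (-0.66) were called lower too. With the replicate number as a block H2-Ab1, H2-Aa, H2-Eb1 and Cd74 were again all called lower. Those values are given in the last section, since the numbers were not taken as pairing. MetSA against M gave 0.12 for H2-Ab1 (-0.37 to 0.61), 0.19 for H2-Aa (-0.29 to 0.67) and 0.27 for H2-Eb1 (-0.25 to 0.79), none called. MetSA replicate 3 held the highest value of H2-Aa, H2-Ab1, H2-Eb1 and Cd74 among the 12 libraries, and without it H2-Aa stood at -0.043.

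None of the H2-DM genes was called lower with any acid against M, and H2-DMb1 rose with all of them. M held 17.2, 21.0 and 22.0 CPM of H2-DMb1, IA 27.6, 27.4 and 30.4, MA 23.0, 23.7 and 28.0, and MetSA 27.5, 29.6 and 32.0. All 9 acid-treated libraries lay above the 3 of M. It rose by 0.50 on the log2 scale with IA (SE 0.10, adjusted p = 0.000491 by edgeR), by 0.56 with MetSA (SE 0.10, adjusted p = 0.000287) and by 0.31 with MA (SE 0.10, adjusted p = 0.0304). The rise with MA missed the threshold when M replicate 1 (0.21, adjusted p = 0.164) or MA replicate 3 (0.22, adjusted p = 0.178) was left out, and with no scaling beyond library totals (0.28, adjusted p = 0.0589).

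For H2-DMa, the alpha chain of the same dimer, M held 13.1, 16.6 and 18.9 CPM, IA 20.2, 18.7 and 25.1, MA 16.4, 15.9 and 19.2, and MetSA 20.4, 25.3 and 27.1. MetSA lay above M without overlap, IA overlapped M in 1 library, and MA overlapped M. It rose by 0.58 with MetSA (SE 0.14, adjusted p = 0.00901 by edgeR) and by 0.40 with IA (SE 0.15, adjusted p = 0.0445), and MA against M gave 0.08 (95% interval -0.23 to 0.40, adjusted p = 0.757). The rise with IA missed the threshold in 7 of the 12 repeats that each left out 1 library (M replicates 1 and 2, IA replicates 1 and 3, MA replicates 1 and 2 and MetSA replicate 2), where adjusted p reached 0.165 and the change 0.27 without M replicate 1. It also missed it with upper-quartile scaling (0.31, adjusted p = 0.12) and with no scaling beyond library totals (0.21, adjusted p = 0.26). Exons of Brd2 on the opposite strand overlap 10.4% of the exon length of H2-DMa. Since the labels do not say whether strand was used in counting, the level of H2-DMa and its changes are uncertain. Brd2 had up to 17400 counts in a library. It rose by 0.21 with IA (adjusted p = 0.0059 by edgeR) and was not called with MetSA (0.07) or MA (-0.005). Whether its reads entered the H2-DMa values was not tested.

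H2-DMb2 had the fewest counts of the 8 genes, 42 to 106 a library. M held 0.846, 1.09 and 1.24 CPM, IA 1.11, 1.17 and 1.37, MA 1.81, 1.75 and 1.89, and MetSA 2.18, 1.42 and 1.56. MA and MetSA lay above M and IA without overlap, which is a different order from that of H2-DMb1. It rose by 0.77 with MA (SE 0.25, adjusted p = 0.0347 by edgeR), and missed the threshold when M replicate 1, M replicate 2 or any MA replicate was left out (0.64 to 0.80, adjusted p up to 0.135). With MetSA the change was 0.70 (95% interval 0.17 to 1.23, adjusted p = 0.0563), which was called by DESeq2 (0.70, adjusted p = 0.0444) and without M replicate 3 (0.83, adjusted p = 0.0491). With IA the change was 0.20 (-0.34 to 0.74, adjusted p = 0.597). H2-DMb1 and H2-DMb2 share 11.3% and 10.3% of their 100-base stretches with each other, so reads of these copies could be divided between them and both values are uncertain, and per kilobase the ratio of H2-DMb2 to H2-DMb1 was at most 0.076 in any library.

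**Figure D2:**
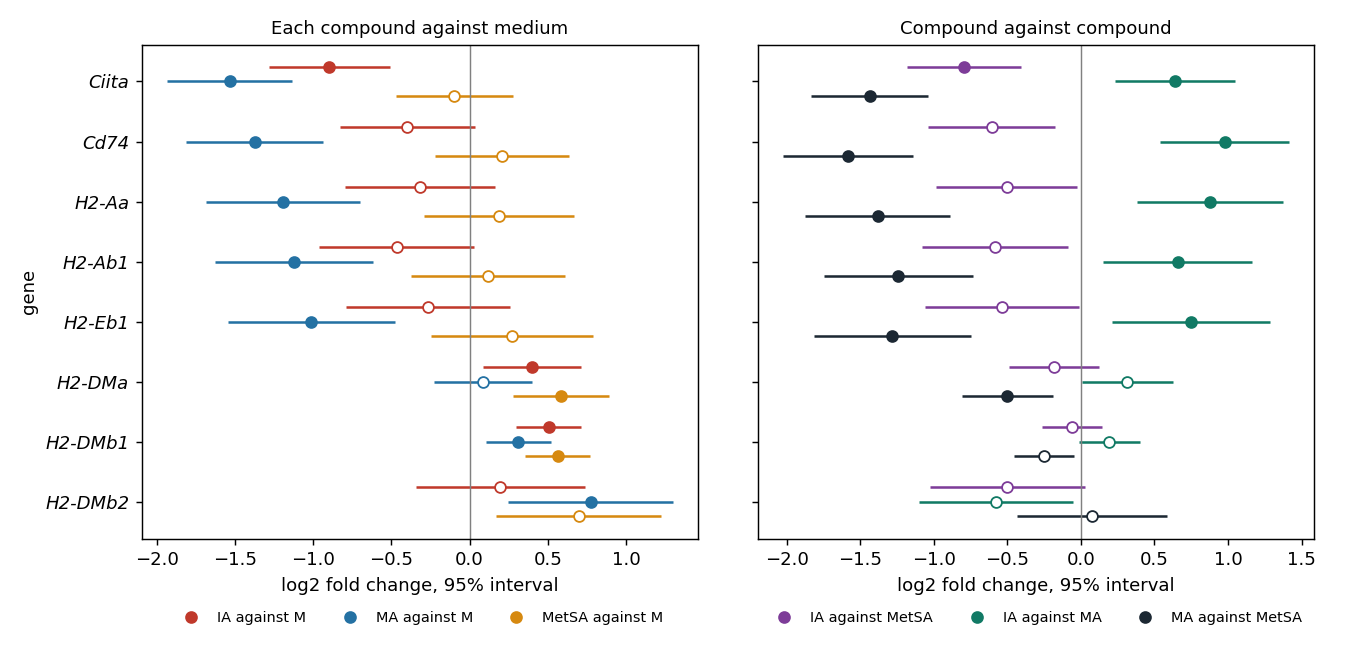
Log2 fold change with 95% interval (horizontal axis) for the 8 genes (vertical axis), each acid against medium on the left and acid against acid on the right. Filled points passed an adjusted p of 0.05 and open points did not. With MA the upper 5 genes lie between -1.53 and -1.01 and the 3 H2-DM genes between 0.08 and 0.77.

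Counted over the 8 genes, MA against M gave 5 lower (Ciita, Cd74, H2-Aa, H2-Ab1, H2-Eb1) and 2 higher (H2-DMb1, H2-DMb2), beside 10.1% of all tested genes lower and 10.1% higher (20.3% in all). IA against M gave 1 lower (Ciita) and 2 higher (H2-DMa, H2-DMb1), beside 17.3% and 17.9% of all genes (35.2% in all). MetSA against M gave none lower and 2 higher (H2-DMa, H2-DMb1), beside 8.53% and 12.6% (21.2% in all). Groups did not overlap for 7 of the 8 genes with MA, 2 with IA and 3 with MetSA, beside 35.6%, 47.7% and 33.7% of all genes. The 5 of 8 lower with MA are well above the share over all genes. These 5 ran closely together over the 12 libraries, and the members were chosen with earlier results known. They are thus not independent of each other, and no test was run over the list. The counts with IA and MetSA depended on the filter, and without a filter on low counts 5 were lower with IA and 4 higher with MetSA (Cd74 and H2-Eb1 besides H2-DMa and H2-DMb1). The median log2 fold change of the 8 genes was -1.07 with MA, -0.29 with IA and 0.24 with MetSA, against -0.02, -0.03 and -0.01 over all tested genes. These 3 comparisons share the M libraries. As the omissions above show, none was higher with MA when M replicate 1 or MA replicate 3 was dropped, and 1 when M replicate 2, MA replicate 1 or MA replicate 2 was. With IA 1 was higher in the 7 repeats that lost H2-DMa, and 2 were lower without M replicate 1. Of all genes called, 50.9% were higher with IA, 50.0% with MA and 59.7% with MetSA by TMM scaling, and 34.8%, 46.7% and 42.2% by upper-quartile scaling.

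Acid was also set against acid at the same dose and time. MA gave lower levels than MetSA for 6 of 8 genes and higher for none (14.7% and 11.6% of all genes, 26.4% together), and MA against MetSA was -1.44 for Ciita (SE 0.19), -1.58 for Cd74 (SE 0.20), -1.38 for H2-Aa, -1.28 for H2-Eb1, -1.24 for H2-Ab1 and -0.50 for H2-DMa. The H2-DMa difference lost its call without MA replicate 1, MA replicate 2, MetSA replicate 2 or MetSA replicate 3 (adjusted p from 0.0666 to 0.0765 by edgeR). Groups did not overlap for 6 of 8, beside 38.8% of all genes. Ciita, Cd74, H2-Aa, H2-Ab1 and H2-Eb1 were higher with IA than with MA, by 0.64 (SE 0.19), 0.98 (SE 0.19), 0.88 (SE 0.22), 0.66 (SE 0.22) and 0.75 (SE 0.24), beside 17.8% of all genes higher and 16.8% lower (34.6% together), and no member was lower. Here 6 of 8 did not overlap, beside 49.6% of all genes. Of these, Cd74 and H2-Aa were called in all 12 repeats that left out 1 library, Ciita in 10 (not without IA replicate 2, adjusted p = 0.0556, or MA replicate 1, adjusted p = 0.0903), H2-Eb1 in 5 and H2-Ab1 in 2. H2-Ab1 was called only without IA replicate 1 or MetSA replicate 1 (adjusted p up to 0.145 otherwise). H2-Eb1 was not called without M replicate 2, IA replicates 2 or 3, any MA replicate or MetSA replicate 2 (adjusted p up to 0.118). With upper-quartile scaling 3 members were called higher with IA than with MA and 1, H2-DMb2, lower (-0.65). Of all genes called, TMM and upper-quartile scaling put 51.5% and 37.5% higher for IA against MA, 44.1% and 54.5% for MA against MetSA, and 64.8% and 54.2% for IA against MetSA.

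Between IA and MetSA, which differ by the double bond, Ciita was the 1 gene of the 8 called by edgeR with its default filter and no replicate block. It was lower with IA (log2 fold change -0.80, 95% interval -1.19 to -0.41, adjusted p = 0.0148 by edgeR), beside 2.15% of all genes lower and 3.97% higher (6.12% together). Groups did not overlap for 3 of the 8 genes, beside 25.8% of all genes. This difference missed the threshold without IA replicate 1 (adjusted p = 0.0766), IA replicate 3 (0.0534) or MetSA replicate 2 (0.0756). For the others no difference was called in that fit, yet the intervals of IA minus MetSA stayed below 0 for Cd74 (-1.04 to -0.18, adjusted p = 0.103), H2-Ab1 (-1.08 to -0.09), H2-Aa (-0.99 to -0.02) and H2-Eb1 (-1.06 to -0.01). Without a filter on low counts Cd74, H2-Ab1, H2-Aa and H2-Eb1 were all called lower with IA than with MetSA, at nearly the same fold changes (-0.61, -0.58, -0.50 and -0.53, the largest adjusted p being 2.23e-07 by edgeR). With the filter H2-Aa had an SE of 0.21 and an adjusted p of 0.225 by edgeR at nearly the same change. The smaller p-values without a filter thus do not reflect a larger difference between the libraries, and their cause was not tested. DESeq2 called Cd74 as well (-0.59, adjusted p = 0.0331). With the replicate number as a block Cd74, H2-Ab1, H2-Aa and H2-Eb1 were called lower too, as given in the last section. The interval was -0.26 to 0.15 for H2-DMb1, -0.49 to 0.12 for H2-DMa and -1.03 to 0.03 for H2-DMb2. Only for H2-DMb1 and H2-DMa did these intervals hold the difference within a log2 fold change of 0.5 either way.

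In order of mean level, Ciita ran MA, IA, MetSA and M, where MetSA and M did not differ beyond their spread. Cd74, H2-Aa, H2-Ab1 and H2-Eb1 ran MA, IA, M and MetSA, and of these steps only MA to IA was called. H2-DMa and H2-DMb1 ran M, MA, IA and MetSA. Of the H2-DM steps only M to MA in H2-DMb1 was called. Replicates of a group spread by 3.81% to 29.2% of their mean (coefficient of variation), and both extremes were in MA, for H2-DMb2 and Ciita. Replicate 1 was the lowest of its group in 26 of 32 sets of 1 gene and 1 group, replicate 2 in 6 and replicate 3 in none.

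Levels per kilobase of exon in M placed Cd74 at 99.5 RPKM, H2-Eb1 at 19.5, H2-Ab1 at 17.5, H2-Aa at 12.7, H2-DMb1 at 11.9, H2-DMa at 4.69, Ciita at 0.850 and H2-DMb2 at 0.607. The ratio of the RNA of an H2-DM gene to that of a chain gene, which does not depend on library scaling, differed between groups. Protein was not measured. For H2-DMb1 over H2-Ab1 per kilobase, M gave 0.673, 0.700 and 0.677, IA 1.73, 1.24 and 1.19, MA 2.17, 1.68 and 1.78, and MetSA 1.13, 0.840 and 0.888. Every acid-treated library lay above every M library in this ratio. For H2-DMa over H2-Aa, M gave 0.368 ± 0.015, IA 0.607 ± 0.019, MA 0.903 ± 0.085 and MetSA 0.498 ± 0.068 (SD, n = 3). By contrast H2-Aa to H2-Ab1 stayed between 0.651 and 0.983 in all 12 libraries. These ratios were formed after the values had been seen and carry no test.

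**Figure D3:**
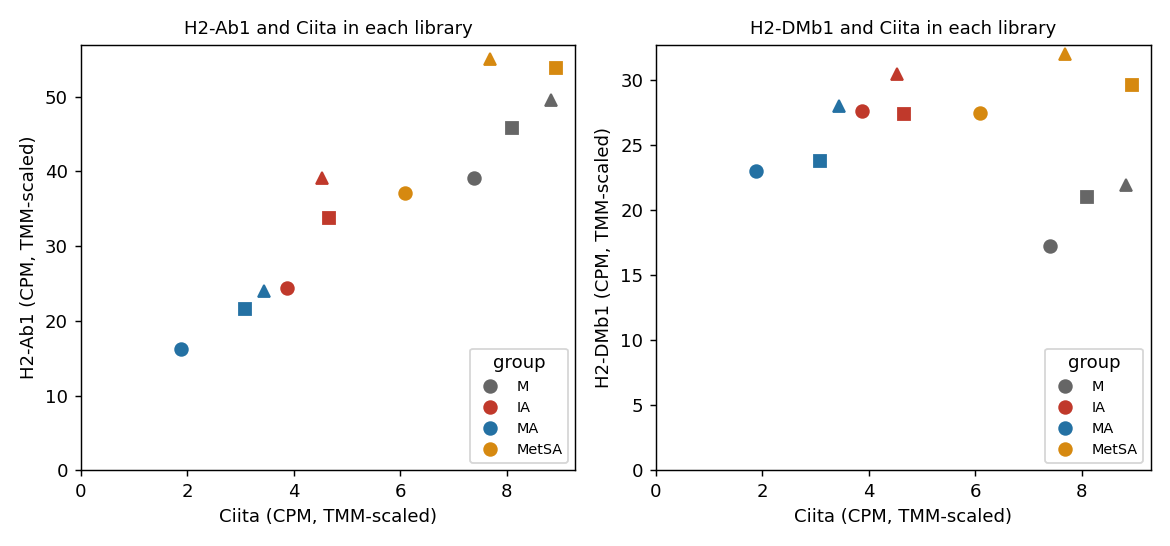
CPM of H2-Ab1 (left) and H2-DMb1 (right) on the vertical axis against Ciita CPM on the horizontal axis, 1 point per library, with colours for the group and circles, squares and triangles for replicates 1, 2 and 3. MA libraries lie lowest on both axes for H2-Ab1, while for H2-DMb1 the M libraries combine high Ciita with the lowest H2-DMb1.

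Across the 12 libraries, log2 CPM of Ciita ran with that of H2-Ab1 (Pearson r = 0.96), Cd74 (0.93), H2-Aa (0.90) and H2-Eb1 (0.88), whereas r was 0.25 with H2-DMa, -0.08 with H2-DMb1 and -0.43 with H2-DMb2. H2-DMa and H2-DMb1 ran with each other (r = 0.90). These values describe 12 libraries in 4 groups that share depth and scaling. Outside the 8 genes, the patterns most like the mean of H2-Aa, H2-Ab1, H2-Eb1 and Cd74 over the 12 libraries, among annotated genes of at least 1 CPM, were those of Tmem176b (r = 0.984), Mapkapk2 (0.984), Tmem176a (0.972), Kctd12 (0.966), Pilra (0.960) and Irf4 (0.960). For Ciita they were Cd163 (0.962), Samd4 (0.957), Tmem176a (0.953), N4bp2l1 (0.950), Tspan17 (0.949) and St3gal4 (0.945). Cd163, a haemoglobin scavenger receptor, averaged 36.3 CPM for M, 17.3 for IA, 10.95 for MA and 27.0 for MetSA. Tmem176b, a membrane protein, averaged 197, 150, 101 and 221 CPM in the same order.

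Apart from Ciita and Cd74, the genes described lie in the class II region of chromosome 17. In mm10 H2-DMa lies from 34119541 to 34139101, H2-DMb2 from 34143307 to 34151555, H2-DMb1 from 34153072 to 34160230, H2-Ab1 from 34257689 to 34269419, H2-Aa from 34282744 to 34287823 (minus strand) and H2-Eb1 from 34305867 to 34316674, and all are protein-coding and counted over exons. Between H2-DMb1 and H2-Ab1 the map holds Psmb9, Tap1, Psmb8 and Tap2, which serve class I presentation, and then H2-Ob. The class I genes rose with IA (Tap1 by 1.85, Psmb9 by 1.41, Psmb8 by 1.31, Tap2 by 0.95) and with MetSA (1.39, 1.07, 1.01 and 0.62). With MA Tap1 fell by 0.34 (SE 0.08), and Psmb9 (-0.27), Psmb8 (-0.01) and Tap2 (-0.08) were not called. H2-Ob, the beta chain of an inhibitor of H2-DM, averaged 0.871 ± 0.44 CPM for M and 2.08 ± 0.37 for MA (SD, n = 3) and rose by 1.26 with MA (SE 0.37, adjusted p = 0.021 by edgeR). H2-Oa had at most 26 counts in a library with no call, and H2-Eb2, with at most 17, was not tested. The H2-Ob promoter held the pair of motifs shown above, 19 bases apart. H2-Ob and H2-Ab1, neighbours on the map, were thus called in opposite directions with MA. H2-Ob had at most 128 counts in a library, and its call was not tried with libraries left out.

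**Figure D4:**
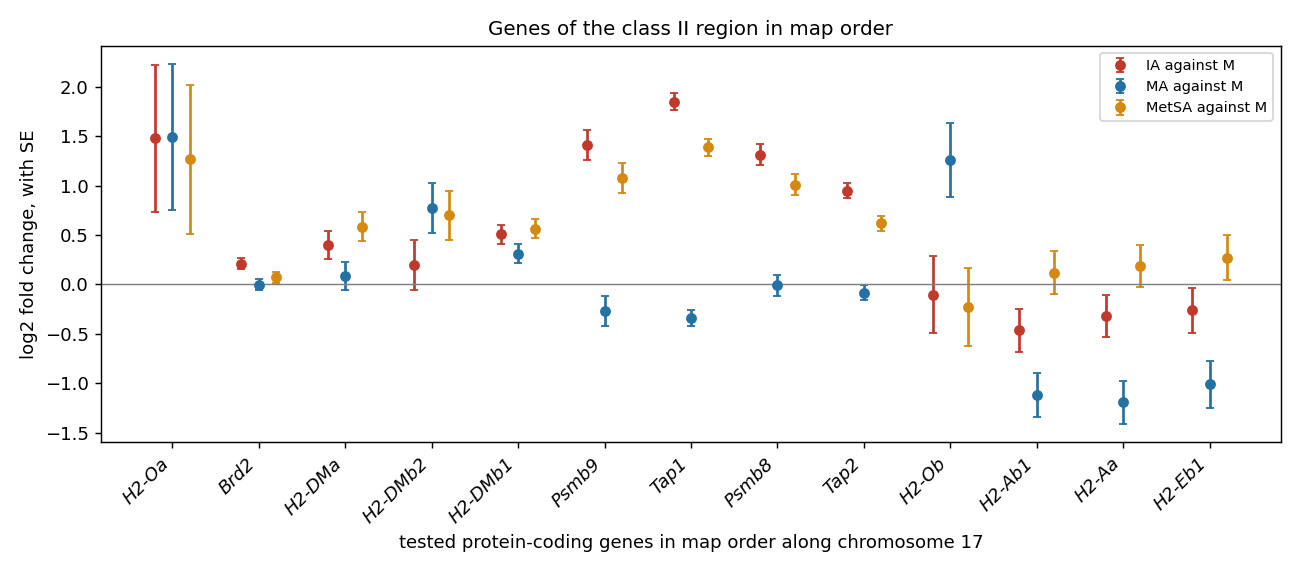
Log2 fold change with SE (vertical axis) of each acid against medium for the 13 tested protein-coding genes from H2-Oa to H2-Eb1, set out in map order (horizontal axis, not to distance). With MA the values fall from 1.26 at H2-Ob to -1.12 at the adjacent H2-Ab1, and with IA the values are highest at Tap1 (1.85).

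RFX, NF-Y and CREB1 are the proteins that hold CIITA on DNA. Of their 7 genes none was called with MA against M (median 0.06), and 1 was higher with IA and 1 with MetSA (medians -0.08 and -0.05), beside 20.3%, 35.2% and 21.2% of all genes called. For so few genes these counts do not stand apart from those shares. That gene was Rfx5, a subunit of RFX, for which M held 13.8 ± 0.60 CPM, IA 16.5 ± 0.80, MA 16.3 ± 0.57 and MetSA 17.4 ± 1.3. It rose by 0.25 with IA (SE 0.09, adjusted p = 0.0309 by edgeR) and by 0.33 with MetSA (SE 0.09, adjusted p = 0.00949), with 0.23 (adjusted p = 0.0665) for MA. Creb1 was lower with IA than with MA (-0.29, SE 0.07). None of these genes was called lower against M in the groups in which Ciita fell. Their part in the class II changes was not tested.

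Of 13 genes on the routes to Ciita (receptors, kinases and factors through which Ciita is switched on or off) 8 were higher and 1 lower with IA, 2 higher and 5 lower with MA, and 8 higher and none lower with MetSA, at medians of 0.39, -0.08 and 0.31. Of all genes 17.9% were higher and 17.3% lower with IA, 10.1% each way with MA, and 12.6% and 8.53% with MetSA. Between the acids 9 of the 13 were higher with IA than with MA and none lower, beside 17.8% and 16.8% of all genes. Irf1, a factor of the interferon-responsive promoter of Ciita, averaged 70.5 ± 2.0 CPM for M, 190.1 ± 18.8 for IA, 57.2 ± 4.3 for MA and 144.7 ± 10.4 for MetSA (SD, n = 3). It rose by 1.43 with IA (SE 0.08) and by 1.04 with MetSA (SE 0.08), and fell by 0.30 with MA (SE 0.08, adjusted p = 0.00818 by edgeR). Jak2, a kinase of the interferon-gamma receptor, rose by 1.05 with IA and 0.68 with MetSA. Irf2, a relative of Irf1, rose by 0.39 with IA and 0.31 with MetSA and fell by 0.32 with MA. Irf4, a factor of dendritic cells and of some macrophages, fell by 1.29 with MA (SE 0.22, adjusted p = 0.000553), with -0.26 for IA and 0.24 for MetSA, neither called. With IA, Ciita was lower and Irf1 higher than in M. Ifngr1, a chain of the interferon-gamma receptor named here after its values were seen, was the 1 gene of this list lower with IA (-0.46, SE 0.07), and it also fell with MA (-0.33, SE 0.07). The part of the genes of this list in the Ciita changes was not tested.

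NLRC5 is the counterpart of CIITA for class I genes. Nlrc5 averaged 72.5 ± 1.2 CPM for M, 231 ± 9.1 for IA, 64.3 ± 3.9 for MA and 160 ± 38 for MetSA (SD, n = 3). It rose by 1.67 with IA (SE 0.14, adjusted p = 2.71e-06 by edgeR) and by 1.14 with MetSA (SE 0.14, adjusted p = 0.000107), and its change with MA was -0.17 (SE 0.14, adjusted p = 0.459). All 11 genes on the class I list were higher with IA and with MetSA (medians 1.21 and 0.96, beside 17.9% and 12.6% of all genes higher), while with MA 1 was higher (Erap1, an endoplasmic reticulum peptidase, by 0.20) and 1 lower (Tap1), at a median of -0.08. Ciita and Nlrc5 were thus called in opposite directions with IA. Tapbp, which loads class I molecules, rose by 1.43 with IA and by 1.09 with MetSA.

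Of 9 genes for endosomal proteases and processing, 7 were higher with IA, 6 with MA and 6 with MetSA, and none was lower (medians 0.57, 0.36 and 0.43), beside 17.9%, 10.1% and 12.6% of all genes higher. Ctss, the protease that makes the last cuts in the invariant chain, averaged 1503 ± 139 CPM for M, 3211 ± 185 for IA, 2619 ± 192 for MA and 2715 ± 114 for MetSA (SD, n = 3). It rose by 1.09 with IA, by 0.80 with MA and by 0.85 with MetSA (SE 0.07 each, the largest adjusted p being 9.91e-08 by edgeR). Ctsh, another cathepsin, rose by 0.81, 0.92 and 0.74 in the same order. Sppl2a, the membrane protease that clears the invariant chain's remnant, rose by 0.84 with IA and 0.60 with MetSA, and Lgmn, an asparagine endopeptidase, by 0.70 and 0.43, while with MA their changes were 0.03 and 0.09. With MA, the RNA of the invariant chain and that of its processing protease therefore went opposite ways.

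Among 5 genes that act on class II at the cell surface, 4 were higher with IA, 3 with MetSA and none with MA, where 2 were lower (medians 0.56, 0.45 and 0.05). Of all genes 17.9% were higher with IA, 12.6% with MetSA and 10.1% with MA, where 10.1% were lower. Marchf1, a ubiquitin ligase that removes class II from the surface, rose by 0.56 with IA (SE 0.08) and 0.45 with MetSA (SE 0.08), with 0.05 for MA. Il10, a cytokine that lowers surface class II, averaged 2.93 ± 0.61 CPM for M, 8.79 ± 0.73 for IA, 0.498 ± 0.069 for MA and 7.54 ± 0.68 for MetSA (SD, n = 3). It rose with IA (1.58) and MetSA (1.36) and fell with MA (-2.56). Il10ra, its receptor, rose by 0.57 with IA and 0.46 with MetSA. Cd83, which opposes MARCH1, fell by 0.35 with MA (SE 0.08, adjusted p = 0.00395 by edgeR). Class II at the surface was not measured, and the part of these genes in the class II RNA changes was not tested.

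Library totals ran from 46892488 to 54252486 counts, with TMM factors from 0.927 to 1.07, lowest in IA and highest in M. Of 12 macrophage markers all were tested, and their summed level was 28185 to 30728 CPM in M and 31042 to 38114 in the acid groups. The largest part was Lyz2 (mean 17116 CPM in M). With MA 3 markers were higher and 1, Adgre1 (F4/80), was lower (-0.43). With IA and with MetSA 10 were higher and none lower. Of all genes 10.1% were higher and 10.1% lower with MA, 17.9% and 17.3% with IA, and 12.6% and 8.53% with MetSA. Other cells that carry class II were looked for by markers. Summed over 10 dendritic cell markers the level was 46.3 to 50.3 CPM for M, 31.5 to 42.9 for IA, 51.0 to 55.9 for MA and 32.7 to 42.0 for MetSA, most of it Itgax, which macrophages also express (41.5 ± 3.0 CPM for M, 18.8 ± 2.6 for IA, 47.6 ± 2.6 for MA and 20.4 ± 4.3 for MetSA, lower with IA and MetSA). Flt3 and Zbtb46 were below 1 CPM in every group mean. With MA 2 of the 10 were higher and 1 lower, beside 10.1% of all genes each way. With IA 4 were higher and 1 lower (17.9% and 17.3% of all genes), and with MetSA 3 higher and 1 lower (12.6% and 8.53%). Xcr1 averaged 0.223 CPM for M, 4.86 for IA, 0.443 for MA and 1.97 for MetSA, and was higher with each acid. Kmo averaged 3.25, 7.66, 2.03 and 8.62 CPM in the same order, higher with IA and MetSA and lower with MA, and Dpp4 0.548, 3.02, 0.228 and 2.75 CPM, higher with IA and MetSA. Siglech was the other gene of the list called, higher with IA and MA. Of 8 B cell markers 5 were tested, Pax5 and Ebf1 reached at most 8 counts, and the sum of 121 to 141 CPM over all libraries was mostly Blnk. T and NK cell markers summed to at most 0.731 CPM, with Cd3g and Ncr1 at 0. Neutrophil and mast cell markers summed to between 40.4 and 74.3 CPM, and none of the 7 tested was called in a comparison with M. The part of other cells in the class II differences was not tested beyond these values.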

How the data were processed

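Counts per gene in 12 libraries were used as deposited by the authors, whole numbers with no normalisation. The submitters' processing notes name STAR, featureCounts and mm10. Versions, annotation and strand setting were not given in the sources used here. Columns were matched to samples by the label's sample name, and groups and replicate numbers came from titles. Symbols were found for 32158 of 32285 genes. Of counts from 1 to 9, 66.1% were even, against 50.9% of counts of 1000 or more, so mates may have been counted separately, and halved counts were tried.

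Genes passing filterByExpr (99.98% of counts) were tested together by edgeR 4.0.16 in R 4.3.3 (TMM, robust glmQLFit and glmQLFTest, 1 fit of 4 groups, 8 residual degrees of freedom, 6 comparisons), with Benjamini-Hochberg adjustment over all genes tested. The script was tested on simulated data. SEs and intervals come from that fit, and CPM uses TMM library sizes. RPKM divides by the union of GENCODE M21 exons. Correlations use log2 CPM with a prior count of 2. DESeq2 1.42.0 served as an alternative.

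Members, lists and tests were chosen with earlier results of these data known. Named genes are the 8 members, up to 4 called genes with the smallest adjusted p per list plus Irf1, Rfx5, Nlrc5 and Ctss, the genes of the class II region, and the 6 most alike in pattern. Library pairs within each group differed by 9.14 to 55.6 chi-square units per degree of freedom, more than sampling noise, so none was a repeat of another. Some genes of the lists are not reported here by name.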

Additional observations from a re-analysis of the deposited data

How the results depend on the processing

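The 5 falls with MA in Ciita, Cd74, H2-Aa, H2-Ab1 and H2-Eb1 kept their direction and their call under upper-quartile and relative log expression scaling, DESeq2, no filter, a stricter filter, halved counts, the replicate block, a fit of only the groups compared, and no scaling beyond library totals, the last added after the data had been seen. Leaving out 1 library at a time gave 4 to 5 lower and 0 to 2 higher members for MA against M, 1 to 2 lower and 1 to 2 higher for IA against M, 0 to 1 lower for IA against MetSA, and 2 to 5 higher for IA against MA. Over all genes IA against MetSA gave 864 calls, 420 to 974 with 1 library left out, 1297 with DESeq2, 1483 without a filter and 575 with only these groups fitted. Uncalled values that changed sign with 1 library left out were H2-DMa with MA (-0.046 without M replicate 1, -0.000341 without MA replicate 3, range to 0.21), Ciita with MetSA (0.036 without MetSA replicate 1, range from -0.24), H2-Aa with MetSA (-0.043 without MetSA replicate 3, range to 0.35) and H2-DMb2 in MA against MetSA (-0.039 without MetSA replicate 2, range to 0.28).

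Members called higher with IA against M numbered 1 with upper-quartile scaling and 1 with no scaling. Members lower numbered 5 with no filter and 3 with no scaling. With MA against M 1 was higher with no scaling, and with MetSA against M 4 were higher with no filter. For IA against MetSA 2 were lower with DESeq2 and 5 with no filter. For IA against MA upper-quartile scaling gave 3 higher and 1 lower and no scaling 2 higher and 1 lower. No scaling moved the median of all genes for IA against M from -0.03 to -0.22, and H2-DMb1 (0.50 with TMM, 0.32 without scaling) kept its sign and its call. The cause of these differences was not tested.

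The replicate number was tried as a block. Deviations of same-numbered libraries from their group means correlated by 0.01 to 0.17, over 0.1 in 2 of 18 pairs, so the numbers were not taken as pairing, although each library correlated best with its own number in 18 of 18. With the replicate block 5 members were lower in IA against M and 5 in IA against MetSA, where 1413 genes were called in all. In IA against M these were Ciita, Cd74 (-0.39, adjusted p = 5.3e-06), H2-Ab1 (-0.48, 1.3e-05), H2-Aa (-0.32, 0.0036) and H2-Eb1 (-0.28, 0.024), and in IA against MetSA the same 5 genes. The replicate block also called Cd74 higher in MetSA against M (0.21, 0.0047), H2-DMa and H2-DMb1 higher in IA against MA (0.31 and 0.20) and H2-DMb1 lower in MA against MetSA (-0.25). H2-DMb2 had the fewest counts, 42 to 106 a library, and whether depth set its calls was not tested.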
